A study of Mus musculus with 16 samples.

Results

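The 10 core lipogenesis genes described here were Fasn, Acaca, Acacb, Acly, Me1, Srebf1, Thrsp, Mlxipl, Pnpla3 and Gpam, chosen by symbol from the 20601 genes of the expression table. All 10 were listed, and all 10 were among the 13432 genes tested. RNA-seq of liver tumors and of nontumor liver from 8 mice gave 16 libraries in 4 groups of 4. Every mouse had received, by hydrodynamic delivery (a rapid, high-volume injection that brings plasmids into hepatocytes), 19 µg of a human N-Ras construct and 1 µg of a human c-Myc construct with 2 µg of a plasmid for Sleeping Beauty transposase, the enzyme that inserts such constructs into the genome. No liver without the plasmids was among the samples, so nontumor liver came from injected mice as well. After 4 weeks, part of the mice were moved to a ketogenic diet (KD; 89.5% fat, 10.4% protein and 0.1% carbohydrate) while the rest ate normal diet (ND), and livers were sampled at week 8. The groups were ND nontumor, ND tumor, KD nontumor and KD tumor; strain, sex and age were not given in the labels used here. The labels do not tie a tumor library to the nontumor library of the same mouse, so the p-values measure the spread between these libraries.

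De novo lipogenesis builds fatty acids from carbohydrate carbon. Citrate leaves the mitochondrion and is cleaved to acetyl-CoA by ATP citrate lyase (Acly), acetyl-CoA carboxylase makes malonyl-CoA from it, and fatty acid synthase (Fasn) assembles palmitate with NADPH that comes in part from malic enzyme (Me1). In liver, insulin acts on these genes largely through SREBP-1c, a product of Srebf1, and glucose through ChREBP, the product of Mlxipl, and the pathway is known to fall with fasting and to rise when carbohydrate is eaten.

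Expression was in TPM (a level per unit of transcript length, so that genes can be compared with each other). The listed genes held between 49.96% and 88.45% of the TPM total in 15 libraries but 7.38% in ND nontumor replicate 4. Values were therefore divided by a factor per library that aligns the typical gene (median of ratios), and levels below are such rescaled TPM. Whole reads recovered from the steps between TPM values gave a depth over the listed genes of 3518966 (ND nontumor replicate 4) to 14074042 reads. Some markers of other cells moved with the tissue. The summed level of 6 Kupffer cell markers was 106 to 290 in nontumor liver and 9.49 to 57.1 in tumor. The summed level of 6 macrophage and monocyte markers was 54.5 to 272 in nontumor liver and 535 to 2582.9 in tumor. Most of it was Spp1, which is also in the cholangiocyte marker list. Between nontumor liver and tumor, Adgre1 (1.54 to 3.93 and 0.813 to 5.51) and Cd68 (16.4 to 31.6 and 19.3 to 36.7) overlapped. Trem2 was 0 to 1.19 and 1.14 to 4.21. The 6 endothelial markers summed to 57.4 to 93.4 in nontumor liver and 48.0 to 100 in tumor. That sum hides opposite moves on ND. In ND nontumor and ND tumor, Pecam1 was 6.88 to 8.31 and 17.4 to 36.3. Cdh5 and Kdr were also higher in ND tumor without overlap. Stab2 was 18.7 to 26.2 and 3.31 to 6.65, and Clec4g was 13.1 to 35.8 and 1.34 to 3.32. Lyve1 overlapped on ND, and on KD each of the 6 overlapped between the tissues. Hepatocyte markers (9 genes) summed to 29086.5 to 84134.7 in nontumor liver, 64670.8 to 119331.6 in ND tumor and 123019.3 to 173485.6 in KD tumor, and most of these sums was Alb and Apoa1. The other hepatocyte markers were mixed. In nontumor liver and tumor, Ahsg was 1622.9 to 2292.2 and 3310.9 to 5402.8 on ND. On KD it was 1911.3 to 4618.6 and 6682.3 to 8113.9. Serpina1a (1308.4 to 3286.4 and 4493 to 6467) and Fgb (341 to 1940.3 and 2036.6 to 2739.8) were also higher in tumor on KD. Ttr was lower in tumor on ND (4469 to 11109.5 and 2298.7 to 3703.8). Cps1 was 194 to 343 in nontumor liver and 36.2 to 127 in tumor, and Hnf4a was 243 to 352 and 187 to 331. Fat cells also use this pathway, and the 9 adipocyte markers together summed to 41.7 to 322. Adipoq was at 0 in 15 of 16 libraries and reached 0.225 in the other, and Plin1 was at 0 in 13 of 16 and reached 0.239. Cfd reached 244, Adrb3 74.1 and Fabp4 58.1, and Plin4 was 25.9 to 58.2 in nontumor liver and 2.53 to 4.38 in tumor. The part of cell mixture in the results was not tested, and in bulk tissue fewer cells of a type and less RNA per cell cannot be told apart.

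Promoter sequences were taken from RefSeq (GRCm38.p6) for all 10 genes, in 15 windows of the 250 bases before an annotated start. The windows of 4 genes are shown because the levels of Gpam, Pnpla3 and Mlxipl did not overlap between tumor and nontumor liver on either diet, and Fasn encodes the synthase itself. Capitals mark matches, on either strand, to CACGTG (an E-box), CCAAT (the box bound by NF-Y) and GGGCGG (a GC box bound by Sp1).
Fasn (chr11:120824548-120824797, minus strand): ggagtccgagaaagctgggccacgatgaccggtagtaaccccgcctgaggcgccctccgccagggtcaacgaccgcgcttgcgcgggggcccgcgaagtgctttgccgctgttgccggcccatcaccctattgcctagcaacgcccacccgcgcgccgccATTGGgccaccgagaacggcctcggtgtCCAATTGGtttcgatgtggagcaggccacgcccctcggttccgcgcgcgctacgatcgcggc
Mlxipl (chr5:135089640-135089889, plus strand): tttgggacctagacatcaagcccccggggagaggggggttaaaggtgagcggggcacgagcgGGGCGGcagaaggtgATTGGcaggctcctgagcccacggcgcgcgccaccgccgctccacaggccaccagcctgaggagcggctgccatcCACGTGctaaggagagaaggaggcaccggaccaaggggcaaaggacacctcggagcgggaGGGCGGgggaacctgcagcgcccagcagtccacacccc
Pnpla3 (chr15:84167566-84167815, plus strand): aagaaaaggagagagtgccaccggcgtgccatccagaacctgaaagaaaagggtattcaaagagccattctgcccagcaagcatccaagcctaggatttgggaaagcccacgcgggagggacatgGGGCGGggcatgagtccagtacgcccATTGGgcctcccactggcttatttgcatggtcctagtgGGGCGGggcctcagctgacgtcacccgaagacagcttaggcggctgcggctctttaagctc
Gpam (chr19:55127239-55127488, minus strand): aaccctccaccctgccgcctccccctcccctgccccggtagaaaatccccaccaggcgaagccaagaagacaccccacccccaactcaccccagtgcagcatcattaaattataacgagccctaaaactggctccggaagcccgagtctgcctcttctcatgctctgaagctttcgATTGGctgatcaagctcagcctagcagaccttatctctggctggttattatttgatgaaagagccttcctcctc

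Fasn carried 3 CCAAT matches within the last 90 bases before its start, of which the last 2 share letters. A CCAAT match stood in 9 of the 15 windows, against 33.8% of 32851 RefSeq promoter windows of the same length. A GC box stood in 7 of the 15 windows, against 32.7% of all windows. By gene, 8 of the 10 had a CCAAT match and 6 a GC box in at least 1 window. No share per gene was counted over all genes, and a gene with more windows has more chances of a match. The E-box was found in 1 window, the one of Mlxipl printed above, against 6.02% of all. The sterol response letters TCACNCCAC were found in a second, downstream start of Mlxipl alone, against 1.05% of all. The single Acaca window (chr11:84195188-84195437) held none of these letters, but it lies inside the annotated gene, which starts at 84129672. The single Acacb window (from 114165268) likewise lies inside its gene, which starts at 114146535. Both windows are in the counts above, and neither covers the bases before the outermost annotated start. These matches describe letters in the windows and are not evidence of binding.

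Tumors on the normal diet differed from nontumor liver in 6 of the 10 genes by limma at a Benjamini-Hochberg adjusted p of 0.05. Gpam, Pnpla3, Acaca and Fasn rose, Me1 and Mlxipl fell, and Acacb, Acly, Srebf1 and Thrsp did not pass. Of all 13432 genes tested, 28.7% passed in this comparison, 14.5% higher and 14.2% lower in tumor. The median log2 fold change was -0.01 over the 10 genes and 0.00 over all genes tested. Here and below, the rescaling aligns the typical gene and so itself holds the median over all genes near 0.00. On the ketogenic diet 3 rose (Gpam, Pnpla3, Acaca), 1 fell (Mlxipl) and 6 did not pass, beside 32.5% of all genes (16.3% higher and 16.2% lower). The median there was 0.62 over the 10 genes and 0.01 over all. Gpam, Pnpla3, Acaca and Mlxipl thus passed in the same direction on both diets, and these 4, like Fasn and Me1 on ND, kept their direction under each of the 3 other scalings tried (TPM as deposited, listed genes at a common sum, and length and GC adjusted). On TPM as deposited, 2 of the 10 passed on ND (Gpam and Pnpla3) and 2 on KD (Mlxipl and Pnpla3). At a common sum Mlxipl on ND (-0.94, limma, adjusted p = 0.0722) and Acaca on KD (0.67, limma, adjusted p = 0.177) did not pass. In the ND comparison the libraries of the 2 tissues did not overlap for the 6 genes that passed, beside 13.8% of all genes higher and 13.7% lower without overlap, and on KD they did not overlap for 3 genes, beside 15.8% and 17.3%. A fold change below is on the log2(rescaled TPM + 1) scale ± SE, with 4 libraries a group.

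**Figure D1:**
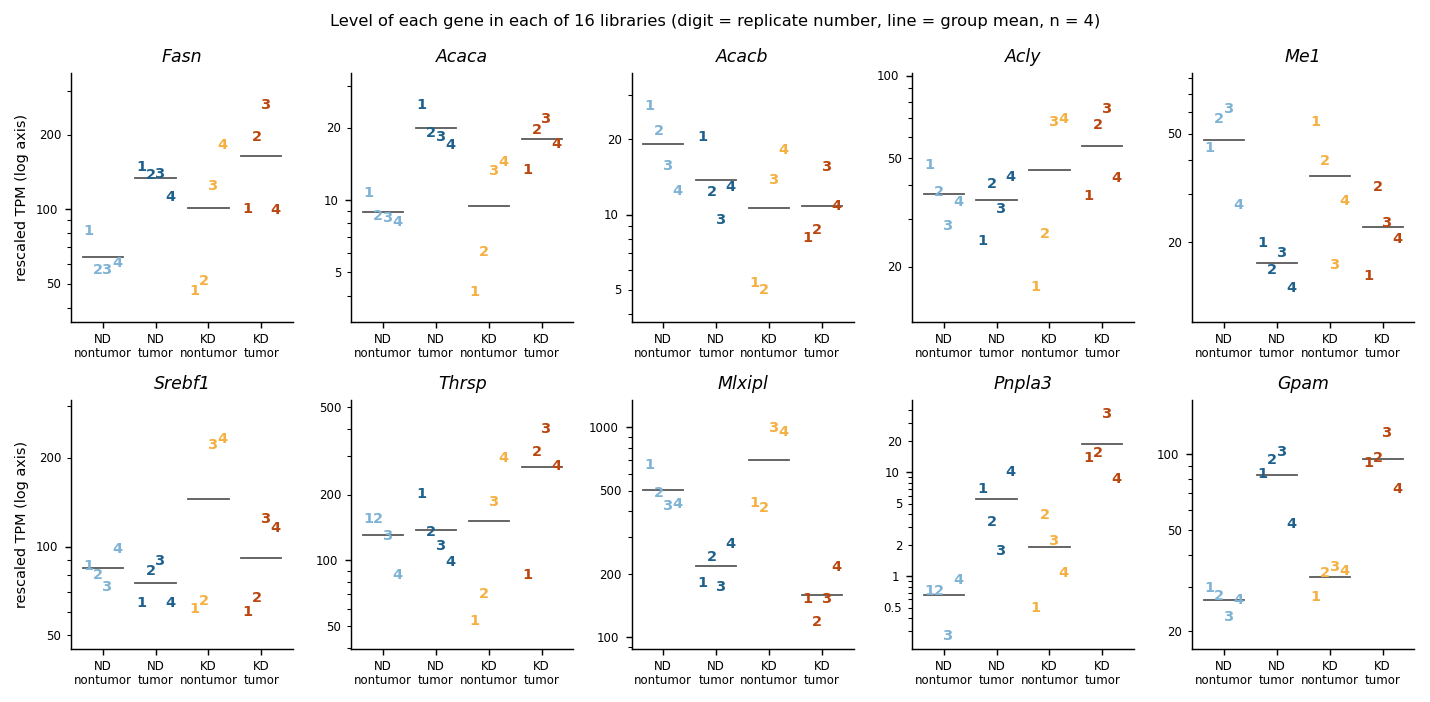
Rescaled TPM (log axis) of the 10 lipogenesis genes in each of the 16 libraries, by group; each digit is a library, by its replicate number, and each line a group mean. Gpam lies between 22.8 and 36.0 in all nontumor libraries and between 52.8 and 121 in all tumor libraries, whereas Srebf1 reaches 220 and 232 in 2 KD nontumor libraries and stays between 60.2 and 124 elsewhere.

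The enzymes that make malonyl-CoA and palmitate came first. Acaca, the cytosolic acetyl-CoA carboxylase that supplies fatty acid synthesis (chr11:84129672-84401651, 59 merged exons), stood at 10.7, 8.59, 8.4 and 8.14 in ND nontumor and at 25, 19.0, 18.3 and 17.0 in ND tumor (replicates 1 to 4). Every ND tumor library was above every ND nontumor library, a rise of 1.06 ± 0.28 (limma, adjusted p = 0.0104). On KD it stood at 4.16, 6.08, 13.2 and 14.4 in nontumor liver and at 13.4, 19.5, 21.8 and 17.2 in tumor. Those groups overlapped, since KD nontumor replicate 4 was above KD tumor replicate 1, and the rise was 0.98 ± 0.28 (limma, adjusted p = 0.0145). Acaca on KD passed in 7 of 10 other settings and was lost as deposited (0.68, limma, adjusted p = 0.524), at a common sum and with only the groups compared (limma, adjusted p = 0.0545).

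Acacb, the carboxylase isoform at the mitochondrial membrane whose malonyl-CoA restrains fatty acid entry for oxidation (chr5:114146535-114250761), did not pass in any comparison. Its levels were 27.2, 21.5, 15.6 and 12.4 in ND nontumor, 20.5, 12.3, 9.49 and 12.9 in ND tumor, 5.35, 4.98, 13.8 and 18.1 in KD nontumor, and 8.09, 8.71, 15.5 and 10.8 in KD tumor. KD nontumor replicates 1 and 2 were the lowest of all 16 libraries. The ratio of the 2 isoforms within a library does not depend on how the library was scaled. Acaca over Acacb was 0.395, 0.4, 0.539 and 0.654 in ND nontumor and 1.22, 1.55, 1.93 and 1.32 in ND tumor, with no overlap. In KD nontumor it was 0.778, 1.22, 0.959 and 0.795, and in KD tumor 1.65, 2.23, 1.41 and 1.59. The ratio was 3.05-fold higher in tumor on ND (two-sided exact permutation test, p = 0.0286, adjusted p = 0.0571) and 1.84-fold higher on KD (exact permutation p = 0.0286, adjusted p = 0.0571). Between the diets in nontumor liver it was 1.9-fold higher on KD (exact permutation p = 0.0286, adjusted p = 0.0571), and in tumor it was 1.15-fold higher (exact permutation p = 0.371, adjusted p = 0.405). With 4 libraries against 4, 0.0286 is the smallest p that the 70 assignments allow, and after adjustment over the 12 ratio tests none passed 0.05.

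Fasn, the synthase (chr11:120805846-120824547), stood at 81.3, 56.9, 56.7 and 60.4 in ND nontumor and at 148, 137, 138 and 112 in ND tumor. The groups did not overlap, but the rise of 1.06 ± 0.39 lay at the threshold (limma, adjusted p = 0.0496). It passed in 5 of 10 other settings and with 7 of the 16 libraries left out one at a time, with adjusted p up to 0.105 without ND nontumor replicate 2. On KD, Fasn spanned 46.8 to 182 in nontumor liver and 99.5 to 262 in tumor, and the difference of 0.80 ± 0.39 did not pass (limma, adjusted p = 0.126). Without KD nontumor replicate 4 that difference was 1.15 (limma, adjusted p = 0.0285). Fasn on KD passed in 2 of 10 other settings. These were length and GC adjusted (1.12, limma, adjusted p = 0.0245) and library weights (1.43, limma, adjusted p = 0.00218).

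Acly and Me1 supply acetyl-CoA and NADPH to Fasn. Acly (chr11:100476353-100528000) overlapped between tissues on both diets, at 28.3 to 47.2 in ND nontumor, 24.8 to 42.5 in ND tumor, 16.8 to 69.4 in KD nontumor and 36.3 to 75.8 in KD tumor. Its differences were -0.08 ± 0.38 on ND and 0.45 ± 0.38 on KD (limma, adjusted p = 0.905 and 0.377). Acly on KD passed in 1 of 10 other settings, library weights (1.07, limma, adjusted p = 0.0126). Fasn over Acly was 1.51 to 2.0 in ND nontumor and 2.63 to 5.97 in ND tumor, 2.22-fold higher in tumor with no overlap (two-sided exact permutation test, p = 0.0286, adjusted p = 0.0571). On KD the ratio was 1.82 to 2.78 in nontumor liver and 2.35 to 3.45 in tumor, where the libraries overlapped and the 1.26-fold difference did not pass (exact permutation p = 0.171, adjusted p = 0.229). Me1, cytosolic malic enzyme (chr9:86581371-86695953), stood at 44.3, 56.8, 61.8 and 27.4 in ND nontumor and at 19.8, 15.8, 18.2 and 13.6 in ND tumor. All 4 ND tumor libraries were below the lowest ND nontumor library, a fall of 2.63-fold (log2 fold change -1.40 ± 0.32, limma, adjusted p = 0.00408). On KD, Me1 stood at 55.3, 39.7, 16.5 and 28.3 in nontumor liver and at 15.0, 31.8, 23.4 and 20.5 in tumor, where the groups overlapped and the difference of -0.52 ± 0.32 did not pass (limma, adjusted p = 0.228). Me1 on KD did pass at a common sum (-0.84, limma, adjusted p = 0.027) and with library weights (-0.94, limma, adjusted p = 0.00822).

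Gpam and Pnpla3 act on glycerolipids. Gpam, the mitochondrial acyltransferase that puts the first acyl chain on glycerol 3-phosphate (chr19:55067268-55127238, 25 merged exons), stood at 29.6, 27.6, 22.8 and 26.7 in ND nontumor and at 83.2, 94.5, 102 and 52.8 in ND tumor. It stood at 27.3, 33.9, 36.0 and 34.5 in KD nontumor and at 92.6, 97.0, 121 and 73.0 in KD tumor. No tumor library reached down to a nontumor library on either diet. The rise was 1.57 ± 0.20 on ND (2.96-fold, limma, adjusted p = 3.45e-05) and 1.5 ± 0.20 on KD (2.83-fold, limma, adjusted p = 6.85e-05). It passed with each of the 16 libraries left out in turn. Its highest library was 1.3-fold above its lowest in ND nontumor and 1.32-fold in KD nontumor, the smallest spread of the 10 genes in both groups.

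Pnpla3, a lipid droplet protein of the patatin-like lipase family and a known target of both SREBP-1c and ChREBP (chr15:84167837-84187236, with a union exon length of 1548 bases), was the lowest of the 10 in nontumor liver. It stood at 0.726, 0.72, 0.27 and 0.926 in ND nontumor and at 6.94, 3.37, 1.76 and 10.1 in ND tumor. It stood at 0.501, 3.89, 2.19 and 1.08 in KD nontumor and at 13.9, 15.3, 36.7 and 8.68 in KD tumor. Every tumor library was above every nontumor library of the same diet. The rise was 1.80 ± 0.45 on ND (limma, adjusted p = 0.00702) and 2.71 ± 0.45 on KD (limma, adjusted p = 0.000373), sizes that the pseudocount of 1 compresses in a gene this low. Between 2 and 40 recovered reads stood behind a nontumor value and between 15 and 431 behind a tumor value, so the nontumor levels carry wide counting error. By voom on the recovered reads the ND rise of Pnpla3 was 2.86 and did not pass (limma, adjusted p = 0.0549). An annotated transcript on the same strand, Gm49513, shares 105 bases of exon with it, so reads of the 2 cannot be told apart there.

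Among the regulators, Mlxipl, encoding the glucose-sensing factor ChREBP (chr5:135089890-135138382), was the highest of the 10 in nontumor liver. It stood at 662, 487, 422 and 434 in ND nontumor and at 182, 241, 173 and 280 in ND tumor. It stood at 437, 413, 999 and 956 in KD nontumor and at 153, 118, 153 and 216 in KD tumor, again with no overlap of the tissues. The fall was 2.29-fold on ND (log2 fold change -1.20 ± 0.31, limma, adjusted p = 0.0077) and 4.1-fold on KD (log2 fold change -2.04 ± 0.31, limma, adjusted p = 0.000157). The difference between these falls did not pass (interaction -0.84 ± 0.43, limma, adjusted p = 0.313). A non-coding gene on the opposite strand, Gm43500, shares 235 bases with Mlxipl exons, and the strand setting of the counting was not given in the sources used here.

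Srebf1, encoding SREBP-1 (chr11:60199089-60222581), overlapped between tissues. It stood at 85.9, 80.3, 72.9 and 98.2 in ND nontumor, 64.4, 82.4, 89.6 and 64.2 in ND tumor, 61.5, 65.6, 220 and 232 in KD nontumor, and 60.2, 67.2, 124 and 116 in KD tumor. Gene-level values do not separate the SREBP-1a and SREBP-1c transcripts. The tissue differences were -0.17 ± 0.39 on ND and -0.45 ± 0.39 on KD (limma, adjusted p = 0.776 and 0.387). Mlxipl over Srebf1 was 4.42 to 7.71 in ND nontumor and 1.92 to 4.36 in ND tumor, 4.13 to 7.11 in KD nontumor and 1.24 to 2.55 in KD tumor. The 2 transcript levels lay closer to each other in tumor, by 2.04-fold on ND and 3.01-fold on KD (two-sided exact permutation tests, p = 0.0286 and adjusted p = 0.0571 for each). Thrsp, the thyroid hormone-responsive protein Spot 14 of lipogenic tissue (chr7:97412938-97417730), stood at 86.0 to 154 in ND nontumor and 98.3 to 202 in ND tumor. It stood at 52.8, 70.2, 185 and 295 in KD nontumor and at 86.0, 313, 400 and 270 in KD tumor, a difference of 0.96 ± 0.51 that did not pass (limma, adjusted p = 0.16). Thrsp on KD passed in 2 of 10 other settings, among them library weights (1.59, limma, adjusted p = 0.00832).

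**Figure D2:**
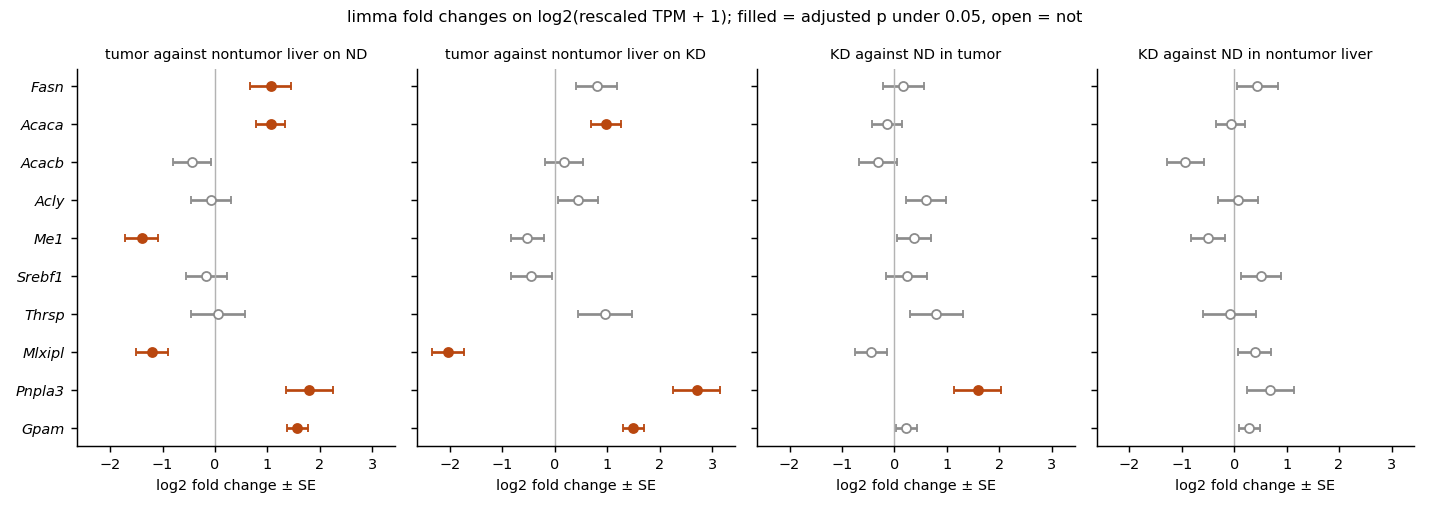
Log2 fold change with its standard error for the 10 genes in the 4 group comparisons, on the log2(rescaled TPM + 1) scale from limma; filled points passed an adjusted p of 0.05. Gpam, Pnpla3 and Acaca lie above 0 and Mlxipl below 0 in both tissue comparisons, and among the diet comparisons only Pnpla3 in tumor, at 1.59, is filled.

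The diets were compared within each tissue. In tumor, Pnpla3 was the 1 gene of the 10 that passed, beside 15.7% of all genes tested (7.21% higher on KD), and in nontumor liver none passed, beside 0.0447% (6 genes). These comparisons share libraries with the tissue comparisons above and are not independent of them. In tumor Pnpla3 was 5.55 ± 3.74 (SD, n = 4) on ND and 18.6 ± 12.3 (SD, n = 4) on KD. The ranges overlapped, since ND tumor replicate 4 (10.1) was above KD tumor replicate 4 (8.68), and the rise was 1.59 ± 0.45 (limma, adjusted p = 0.0276). Without KD tumor replicate 3 it was 1.22 and did not pass (limma, adjusted p = 0.0941), nor did it pass without KD tumor replicate 2 or without ND tumor replicate 2 or 3, and it passed in 4 of 9 other settings. The other 9 genes differed between the diets in tumor by -0.45 (Mlxipl) to 0.80 (Thrsp), with adjusted p up to 0.788 in limma. The median of the 10 was 0.22, and 0.03 over all genes tested.

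In nontumor liver Acacb stood at 19.2 ± 6.51 (SD, n = 4) on ND and 10.6 ± 6.48 (SD, n = 4) on KD. That difference was -0.93 ± 0.36 (limma, adjusted p = 0.426), and Acacb was the 1 gene of the 10 with an unadjusted p under 0.05. It passed at -1.53 with library weights (limma, adjusted p = 0.00655), and by voom on the recovered reads 0 of the 10 passed. The median of the 10 was 0.18, and 0.01 over all genes. The diet effect did not pass as different between the tissues for any of the 10 in limma or voom, beside 0.61% of all genes, and 0 of the 10 had an unadjusted p under 0.05. In limma simulations of the ND tissue comparison over 13166 genes, 100 genes were changed 2-fold and 100 were changed 4-fold. Of these, 55% and 95% were recovered, so changes of 2-fold or less can be missed with 4 libraries a group. Genes of low level were not among those changed, and in the real ND tissue comparison 28.7% of genes passed. The diet comparisons and the interaction were not simulated, so these shares do not measure what could be missed there.

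The KD nontumor libraries differed from each other in these genes more than the other groups did. The highest library was between 1.32-fold (Gpam) and 7.76-fold (Pnpla3) above the lowest, with a median of 3.705 over the 10 genes. That median was 2.075 in KD tumor, 1.62 in ND nontumor and 1.665 in ND tumor. Over 8149 genes with a mean of at least 5 the medians were 1.66 in KD nontumor, 1.52 in KD tumor, 1.58 in ND nontumor and 1.65 in ND tumor. No test was made of this spread, which was noticed in these same values.

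Replicates 3 and 4 of KD nontumor were the 2 highest for 8 of the 10 genes and the 2 lowest for 1, Me1. The share of all genes with this order was not counted. The same split ran through the whole table, by chi-square per degree of freedom on recovered reads of all genes. This was 137.1, 73.8, 134.7 and 73.6 between replicates 1 or 2 and replicates 3 or 4. It was 13.2 between replicates 1 and 2 and 25.2 between replicates 3 and 4. The order is therefore not particular to these genes. Fasn stood at 46.8, 51.2, 124 and 182 across the 4 replicates and Acly at 16.8, 26.3, 68.1 and 69.4. The same order was seen, in genes named after their values were seen, in Pklr (liver pyruvate kinase) at 24.1, 33.8, 142 and 146 and in G6pc (glucose 6-phosphatase) at 109, 96.8, 1169.3 and 971. These 2 do not stand for their list. Over 15 ChREBP partners and carbohydrate-response genes the median of highest over lowest in KD nontumor was 1.68 (1.22 to 12.1). It was 2.59 over 13 genes of elongation and desaturation. Elovl3, an elongase named in the same way, had the opposite order, at 345, 238, 80.1 and 85.9. Scd1, the stearoyl-CoA desaturase, was low in all 4, at 23.1, 77.5, 51.0 and 57.3, beside 898 to 1085.3 in ND nontumor. Replicates 3 and 4 also had fewer reads over listed genes (6132073 and 5676970 against 11039834 and 10968126) and a lower listed share of TPM (66.79% and 73.05% against 86.65% and 88.45%). Their hepatocyte marker sums were 29086.5 and 55463.7, against 75171.6 and 84134.7. Alb, Apoa1, Apob, Ttr, Fgb, Serpina1a and Ahsg were each lower in replicates 3 and 4. Cps1 (228, 194, 226 and 231 in replicates 1 to 4) and Hnf4a (282, 277, 291 and 243) did not split this way. The adipocyte marker sums of replicates 1 to 4 were 111, 131, 100 and 322. Of the 322, Cfd made up 244. Plin4 (58.2, 46.6, 25.9 and 27.2) and Fabp4 (7.05, 12.8, 5.29 and 4.03) were lower in replicates 3 and 4. Adrb3 was higher there (17.0, 21.7, 52.0 and 34.7). With transcript length and GC trends removed per library, the median spread of the 10 genes in KD nontumor was 3.34, and 1.63 over 8007 genes. The part of depth, listed share and cell mixture in this order was not tested.

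**Figure D3:**
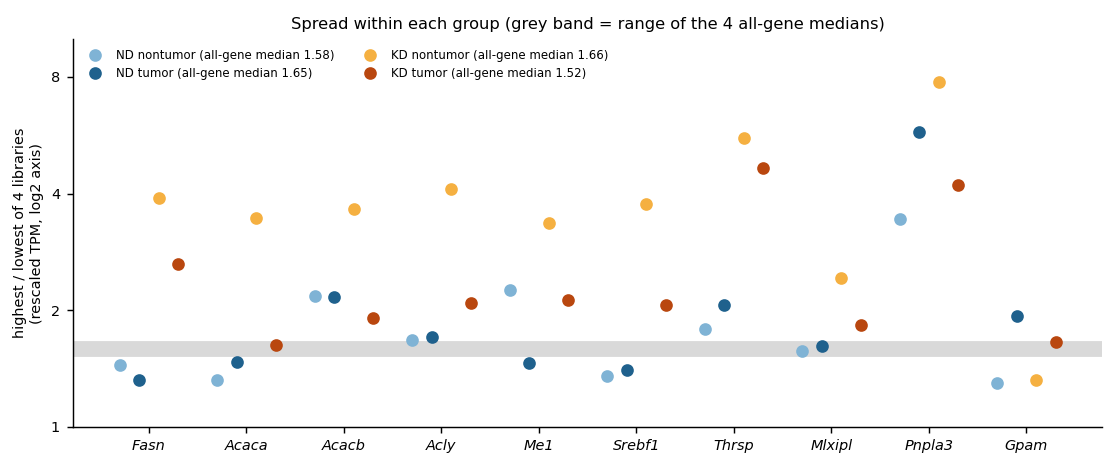
Highest over lowest rescaled TPM (ratio, log axis) within each group of 4 libraries; each point is 1 of the 10 genes in 1 group, and the grey band spans the 4 group medians over 8149 genes with a mean of at least 5. In KD nontumor the genes have a median of 3.705 beside 1.66 for all genes, whereas in ND nontumor and ND tumor both medians lie between 1.58 and 1.665.

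**Figure D4:**
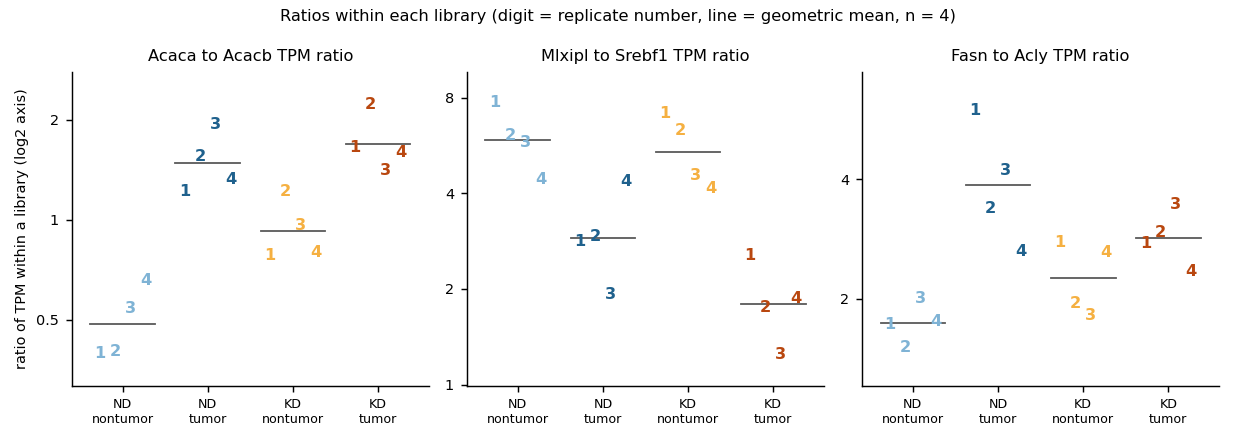
Ratios of TPM within each library (log axis) for Acaca to Acacb, Mlxipl to Srebf1 and Fasn to Acly, by group; each digit is a library, by its replicate number, and each line the geometric mean of a group. Acaca to Acacb lies between 0.395 and 0.654 in ND nontumor and between 1.22 and 2.23 in the 2 tumor groups, and Mlxipl to Srebf1 lies at or below 4.36 in tumor.

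Steps around the 10 genes were read from 8 lists of neighbouring genes, whose counts stand beside 28.7% of all genes called between the tissues on ND, 32.5% on KD and 15.7% between the diets in tumor. In the acetyl-CoA and citrate list (13 tested), 1 rose and 6 fell in ND tumor against nontumor liver, with a median of -0.29. The gene that rose was Slc25a1, the mitochondrial citrate exporter, at 144 ± 35.3 (SD, n = 4) in nontumor liver and 241 ± 60.9 (SD, n = 4) in tumor (0.74 ± 0.26, limma, adjusted p = 0.0418). Citrate synthase (Cs) fell by 0.98 ± 0.19 on the log2 scale (limma, adjusted p = 0.000981) and malate dehydrogenase Mdh1 fell by 1.41 ± 0.36 (limma, adjusted p = 0.00823). On KD 1 rose, again Slc25a1 (0.91 ± 0.26, limma, adjusted p = 0.0127), and 3 fell. In tumors on KD against ND 3 of 13 rose, among them Cs (0.94 ± 0.19, limma, adjusted p = 0.00521), and none fell.

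The NADPH list (11 tested) had 3 rises and 3 falls on ND and 4 rises with no fall on KD. G6pdx, the entry enzyme of the pentose phosphate pathway, was 4.52 ± 1.72 (SD, n = 4) in ND nontumor and 16.5 ± 4.75 (SD, n = 4) in ND tumor, a rise of 1.67 ± 0.26 (limma, adjusted p = 0.000213). On KD it rose by 2.01 ± 0.26 (limma, adjusted p = 5.31e-05), and Pgd, the pathway's second NADPH-forming enzyme, rose on both diets (1.23 on ND and 0.89 on KD). The 3 falls on ND were Taldo1 (-1.16), Rpe (-0.97) and Mthfd1 (-0.79). Me1, the malic enzyme above, therefore moved opposite to G6pdx and Pgd in ND tumors and in the same direction as these 3.

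Of 13 genes of elongation and desaturation, 2 rose and 1 fell on ND (median -0.13) and 7 rose and 1 fell on KD (median 0.95). Elovl3, a very-long-chain elongase, fell on both diets, from 309 ± 190 (SD, n = 4) to 1.39 ± 1.09 (SD, n = 4) on ND (log2 fold change -6.90 ± 0.57, limma, adjusted p = 4.44e-07). Scd2 rose on both (3.0 and 3.69). Scd1 was the 1 gene of all the lists that passed between the diets in nontumor liver (-4.33 ± 0.39, limma, adjusted p = 6.31e-05) and in the interaction (3.46 ± 0.55, limma, adjusted p = 0.0179). In tumors on KD against ND, 5 of 13 rose and none fell, led by the desaturase Fads2 (2.35 ± 0.27, limma, adjusted p = 0.000337).

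In glycerolipid assembly (17 tested), 3 rose and 6 fell on ND and 4 rose and 6 fell on KD. Among the other acyltransferases of Gpam's step, Gpat4 fell by 0.83 ± 0.14 on ND (limma, adjusted p = 0.000344). Gpat2 fell by 2.33 ± 0.37 on ND and by 2.01 ± 0.37 on KD (limma, adjusted p = 0.000232 and 0.000796). Gpam thus rose where Gpat2 fell on both diets. Pnpla5, a relative of Pnpla3, was 0.905 ± 1.74 (SD, n = 4) in ND nontumor and 42.4 ± 9.15 (SD, n = 4) in ND tumor, a rise of 4.84 ± 0.57 (limma, adjusted p = 1.42e-05). Abhd5, a partner of lipid droplet lipases, rose by 1.95 ± 0.26 on ND (limma, adjusted p = 4.38e-05).

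Of 19 genes of SREBP processing and activation, 3 rose and none fell on ND, namely Insig1 (0.99), Srebf2 (0.68) and Scap (0.66). On KD 2 rose, Insig1 (0.68) and Insig2 (0.85), both of which retain SREBP in the endoplasmic reticulum, and 5 fell. Among 16 ChREBP partners and carbohydrate-response genes, 1 rose and 3 fell on ND and 1 rose and 5 fell on KD. Fgf21, a liver hormone, rose on both diets (1.51 and 1.24), and G6pc, a ChREBP target like Pklr, fell on both by 3.30 and 2.50 on the log2 scale. Mlxip, the paralog of Mlxipl, fell on KD by 0.76 ± 0.17 (limma, adjusted p = 0.00305).

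In the list of acetyl-CoA carboxylase regulation (12 tested), 2 rose and 1 fell on each diet. Hlcs, which attaches biotin to the carboxylases, rose by 0.79 ± 0.18 on ND and 0.62 ± 0.18 on KD (limma, adjusted p = 0.00318 and 0.0145), as did Prkab1, a subunit of the AMP-activated kinase that inhibits them (0.83 and 0.50). Mlycd, which removes malonyl-CoA, fell by 0.86 ± 0.18 on ND (limma, adjusted p = 0.00197). In the insulin signal list (14 tested), 1 rose and none fell on ND and 1 rose and 3 fell on KD, and Igfbp1, a gene that insulin lowers, was the riser on both (1.52 and 2.10).

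These list counts moved with the scaling. On TPM as deposited, the 6 falls of the citrate list on ND became 0 and its median became 0.32, and with listed genes at a common sum they became 4 with a median of -0.04. The elongation and desaturation list had 2 rises on KD as deposited and 6 at a common sum, with a median of 0.63 under both, while its ND median turned to 0.47 and 0.11. The NADPH list had 1 rise on KD as deposited and 2 rises with 1 fall at a common sum. The 6 falls of glycerolipid assembly on ND became 1 and 4. For the tissues on KD, the carboxylase regulation list and the SREBP list had no rise under either scaling, so the KD rises of Hlcs, Prkab1, Insig1 and Insig2 were lost, while at a common sum 3 and 7 genes of these lists fell. Between the diets in tumor, the elongation and desaturation list had no call as deposited, and 4 rises and 3 falls at a common sum.

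Profiles over the 16 libraries were compared as the root mean square difference of centred log2 values, over 7832 genes. The nearest to Fasn was Acaca, at 0.33, followed by Elk4 at 0.38, and the nearest to Acaca were Elk4 at 0.27 and Slc30a9 at 0.31. Gpam lay nearest to Rassf3 (0.19) and Cdc42se1 (0.23), Mlxipl to Zfp395 and Eva1a (both 0.25), and Me1 to Rarres1 (0.25) and Glrx (0.31). Srebf1 lay nearest to Dido1 and Aacs (both 0.29), and Acly to Bhlhe40 (0.33) and Lpcat3 (0.37). Acacb lay nearest to Ttc23 (0.40) and Zfp825 (0.41), Thrsp to Acly (0.51) and B3galt1 (0.52), and Pnpla3 to Rpl22l1 (0.68) and Fam83a (0.69). Fasn and Acaca, and Thrsp and Acly, were the pairs among the 10 in which 1 was the other's nearest gene. These distances describe libraries that share depth and scaling, and carry no test.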

How the data were processed

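The values analysed were TPM for 20601 genes in 16 liver libraries, as deposited. Per the submitters' processing notes, the authors used FastQC, HISAT2, SAMtools and featureCounts with mm10. Versions, the annotation and the step from counts to TPM are not given in the sources used here. The labels' polyadenylated RNA libraries were matched to columns by diet letters and replicate number, the letter P in column names standing where titles have N for nontumor.

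TPM was divided by median-of-ratios factors (12119 genes above 0 in all libraries). Genes with deposited TPM of at least 1 in at least 4 libraries (13432) were tested with limma 3.58.1 in R 4.3.3, with a variance trend on log2(rescaled TPM + 1), all 16 libraries in 1 fit and no block. P-values were adjusted by Benjamini-Hochberg over all tested genes, with a threshold of 0.05. The 12 ratio tests were two-sided exact permutation tests over libraries (numpy 2.4.6) and were adjusted together. The genes, the 8 pathway lists and the 9 marker lists were chosen with earlier results of these data known. Genes named were the 10, the up to 3 smallest adjusted p-values per list, comparison and direction, and the 2 nearest profiles. Pklr, G6pc and Elovl3 in KD nontumor were named after their values were seen.

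Whole reads were recovered from the deposited TPM steps for 20601 of 20601 genes within 0.001 reads, and on simulated data 99.56% of 3620 genes equalled the truth. These reads gave the depth and an alternative voom fit, which called 3728, 4310, 2498, 6 and 81 genes in the order tumor against nontumor on ND, on KD, KD against ND in tumor, in nontumor liver, and the interaction. Implied lengths equalled GENCODE M21 exon lengths within 0.5% for 91.8% of 19989 genes and for all 10 described. No library was dropped, and no 2 libraries of a group were copies (chi-square per degree of freedom of at least 12.3). Alternatives were TPM as deposited, a common sum, a pseudocount of 0.1, no filter, only the groups compared, library weights, replicate blocks, voom, removal of length and GC trends, and leaving out each library.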

Additional observations from a re-analysis of the deposited data

Results flagged for a closer look

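Fasn in ND nontumor stood at 81.3 in replicate 1, while the other 3 libraries lay between 56.7 and 60.4, a gap that exceeds Dixon's 95% limit for 4 samples. It was 1 of 52 groups of values checked this way, and chance alone flags about 1 in 20.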

How the results depend on the processing

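Of 480 values of single genes under settings other than a left-out library, 415 kept their direction and their side of the threshold, 19 lost the threshold, 8 gained it and 38 changed sign. Every sign change was in a difference that had not passed, and the cause was not tested. With TPM as deposited, the median of all tested genes was 0.42 (tissues on ND), -0.26 (tissues on KD), 0.00 (diets in tumor), 0.69 (diets in nontumor liver) and -0.67 (interaction). At a common sum these medians were 0.21, -0.26, -0.33, 0.10 and -0.46. As deposited, the share of higher calls was 77.2%, 34.8%, 34.5%, 92.3% and 14.3% in that order, against 50.5%, 50.1%, 45.9%, 16.7% and 34.1% after rescaling. At a common sum it was 70.6%, 29.8%, 9.5%, 53.8% and 6.0%. Genes past the threshold as deposited numbered 1418, 1111, 113, 65 and 14 in that order, against 3855, 4361, 2109, 6 and 82 after rescaling.

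For the 10 genes, the number past the threshold was 2 on ND and 2 on KD with TPM as deposited, and 8 on KD with library weights. For the diets in tumor it was 0 as deposited, at a common sum, with a pseudocount of 0.1, with no filter and with only the groups compared. For the diets in nontumor liver it was 1 with library weights. For the diets in nontumor liver 13 genes of all passed at a common sum, 10 without a filter, 2 with only the groups compared, 433 with library weights and 13 with length and GC adjusted. For the interaction the counts were 546, 32 without a filter, 386 with weights and 54 with length and GC adjusted.

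As deposited, sign changes on ND were Acacb 0.08, Acly 0.54 and Srebf1 0.48, on KD Acacb -0.13, between the diets in nontumor liver Acaca 0.67, Me1 0.38 and Thrsp 0.85, and in the interaction Acacb -0.22, Acly -0.41, Me1 -0.04 and Thrsp -0.08. At a common sum they were Acly 0.17 and Srebf1 0.08 on ND, Acacb -0.14 on KD, Fasn -0.29, Me1 -0.08, Srebf1 -0.24 and Gpam -0.24 between the diets in tumor, Acaca 0.04 and Thrsp 0.02 in nontumor liver, and Acly -0.04 in the interaction. With library weights they were Acly 0.01 and Thrsp -0.06 on ND, Srebf1 0.18 on KD, Fasn -0.08, Acly -0.50, Srebf1 -0.10 and Mlxipl -0.04 between the diets in nontumor liver, and Fasn 0.31, Acaca 0.38, Srebf1 0.29 and Gpam 0.02 in the interaction. With length and GC adjusted they were Thrsp -0.01 on ND, Acaca 0.03 and Acacb 0.00 between the diets in tumor, and Fasn 0.13, Acaca 0.14 and Srebf1 0.02 in the interaction.

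With 1 library left out in turn, 757 of 800 values of single genes kept direction and side. The number of the 10 past the threshold ranged from 5 to 6 on ND, from 4 to 6 on KD and from 0 to 1 for the diets in tumor, with 0 without KD tumor replicates 2 or 3 or ND tumor replicates 2 or 3. For all genes it ranged from 1046 (without KD tumor replicate 3) to 2517 for the diets in tumor, from 5 to 12 (without KD nontumor replicate 4) in nontumor liver, and from 9 (without ND nontumor replicate 2) to 190 (without ND nontumor replicate 4) for the interaction. The differences whose sign changed ranged as follows. On ND, Acly ranged from -0.19 to 0.08 and Thrsp from -0.14 to 0.21. On KD, Acacb ranged from -0.09 to 0.47. Between the diets Fasn in tumor ranged from -0.09 to 0.37, and in nontumor liver Acaca ranged from -0.30 to 0.23, Acly from -0.21 to 0.46 and Thrsp from -0.52 to 0.30. In the interaction Fasn ranged from -0.55 to 0.09, Acaca from -0.37 to 0.16, Srebf1 from -0.60 to 0.03 and Gpam from -0.27 to 0.05. The log2 ratio of Mlxipl to Srebf1 between the diets in nontumor liver ranged from -0.27 to 0.00.

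Correlations of deviations between tumor and nontumor libraries of equal replicate number ran from -0.11 to 0.16. Of the 8 pairs, 2 were over 0.1, and 2 nontumor libraries correlated best with their own number. These values cannot tell whether equal numbers mark the same mouse, since a tumor need not share the deviations of its host liver. With the number as a random replicate block (correlation -0.021), Fasn on ND did not pass (limma, adjusted p = 0.0528). With it as a fixed block Fasn did not pass (limma, adjusted p = 0.0505), Thrsp on KD did (limma, adjusted p = 0.0405), and the interaction had 32 genes of all. Paired sign flips of the ratios over 4 pairs cannot reach 0.05. With the fixed block the diet effects within a tissue could not be estimated, so that fit was not run for them. Pnpla3 in nontumor liver is limited by depth.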
